A study of Mus musculus with 12 samples.

Results

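Transcripts of 10 genes that make and load peptides for MHC class I were followed in β-cells and non-β-cells of NOD mice. They are Psmb8, Psmb9 and Psmb10 (catalytic subunits of the immunoproteasome), Psme1 and Psme2 (the PA28 activator), Tap1 and Tap2 (the peptide transporter), Tapbp and Tapbpl (peptide editors) and Erap1 (a peptide-trimming enzyme). They were taken by name, through the Ensembl identifiers of the count table, and all 10 were found among its 52962 genes. All 10 also passed the filter on low counts, which 15598 genes passed.

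NOD is an inbred mouse strain that develops autoimmune diabetes, the mice were female, and the labels name no treatment and no introduced allele. RNA-seq was done on sorted islet cells of 2 fractions, β-cells and non-β-cells, each at 2 ages, 4 and 8 weeks, with 3 samples for each fraction and age. The study took the younger age for an early phase, in which myeloid cells enter islets with an interferon signature, and the older for a phase of heavy leukocyte infiltration. Islets were cultured overnight before they were dispersed, and cells were then sorted by autofluorescence with removal of CD45-positive cells, so values describe what remained after culture and the sort. The study describes samples as pools of mice, whereas the labels name neither animals nor pools, so p-values measure the spread between these samples, which may be partly technical.

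Proteasomes cut cytosolic proteins into peptides. Under interferon, cells replace the 3 constitutive catalytic subunits Psmb5, Psmb6 and Psmb7 with Psmb8, Psmb9 and Psmb10, respectively, and the PA28 ring opens the proteasome's gate. The transporter carries peptides into the endoplasmic reticulum, Erap1 shortens them, and the editors select those that bind class I firmly. In type 1 diabetes, CD8+ T cells recognise such peptides on β-cells.

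Of the 10 genes, 5 lie on chromosome 17, and 4 of these form a cluster in the MHC. In the annotation (build GRCm38) the order along the cluster is Psmb9 (ENSMUSG00000096727, chr17:34181987-34187764, minus strand), Tap1 (ENSMUSG00000037321, chr17:34187553-34197225, plus strand), Psmb8 (ENSMUSG00000024338, chr17:34197721-34201454, plus strand) and Tap2 (ENSMUSG00000024339, chr17:34203527-34216321, plus strand). Psmb9 and Tap1 are read away from each other. Their RefSeq starts have 225 bases between them, and their annotated exons share 212 bases on opposite strands, where reads can be told apart only if strand was used in counting. Tapbp (ENSMUSG00000024308, chr17:33915899-33929292, plus strand) lies apart from the cluster. Psme1 (ENSMUSG00000022216, chr14:55578123-55581529, plus strand) and Psme2 (ENSMUSG00000079197, chr14:55587441-55591113, minus strand) are neighbours with 5911 bases between them. Psmb10 (ENSMUSG00000031897, chr8:105935735-105938444, minus strand), Tapbpl (ENSMUSG00000038213, chr6:125223933-125231860, minus strand) and Erap1 (ENSMUSG00000021583, chr13:74639568-74693201, plus strand) stand alone.

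Promoter windows from RefSeq (GRCm38.p6), from 250 bases before to 50 bases after a transcript start, were found for 8 of the 10 genes, all but Tap2 and Tapbpl. They were searched on both strands for motifs of interferon-induced factors, of NF-kappaB and of the general activator Sp1 (the GC box). The motifs were chosen after the sequences had been seen. The interferon regulatory factor element, a GAAA followed by any 2 bases and another GAAA, was in the windows of Psme1 and Erap1 and in 3.44% of all 32851 windows. The STAT element TTCNNNGAA was in that of Psmb8 and in 8.30% of all windows. The GC box GGGCGG was in 6 of the 8 genes and in 35.7% of all windows, and the kappaB motif (8.46% of all windows) was in none of them. The sites below are shown because they place the motifs in genes whose change with age in this study ran from strong (Psmb8) to none detected (Erap1). Each has 30 bases of the plus strand with the motif, or its reverse complement, in capitals. The Tap1 site is the GC box that is also in the window of Psmb9.
Psmb8, STAT element, chr17:34198088-34198117: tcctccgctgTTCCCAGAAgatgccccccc
Tap1 and Psmb9, GC box, chr17:34187368-34187397: cagactgaggccCCGCCCcatcatcgcgca
Psme1, interferon regulatory factor element, chr14:55578493-55578522: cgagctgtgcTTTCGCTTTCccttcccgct
Erap1, interferon regulatory factor element, chr13:74639839-74639868: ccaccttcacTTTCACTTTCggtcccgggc
A match describes these letters only and is not evidence of binding.

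Levels are given as CPM, the usual read-depth unit of counts divided by the library's total, here after scaling with TMM factors (trimmed mean of M-values). Sequencing depth was 13755106 to 27040652 estimated counts per sample. Replicates differed by more than counting noise in every group, the chi-square divided by its degrees of freedom being 7.79 to 88.5. By this measure the 4-week samples numbered 3 stood apart, at 82.2 and 88.5 from their β mates and 36.9 and 44.7 from their non-β mates. Numbers 1 and 2 gave 25.0 (β) and 12.1 (non-β). Among 8-week non-β samples, number 1 was apart, at 22.9 and 32.0 from its mates, against 9.33 between numbers 2 and 3. By root mean square log2 distance, 4-week non-β sample 2 was further from its mates (0.932) than number 3 (0.920). Proteasome genes were high in the samples numbered 3. The 11 other subunits of the 20S core were all highest in number 3, at a median of 1.66-fold the geometric mean of numbers 1 and 2 among β samples and 1.43-fold among non-β samples. Of the 10 genes, 9 were highest in number 3 among 4-week β samples and 8 among 4-week non-β samples, so counts below are also given without both of these samples. Leaving them out lowers the 4-week mean of such genes, which by itself enlarges a rise. How many of all tested genes were highest in number 3 is not given here. The sorted fractions held the markers of their labels: 8 β-cell markers summed to at least 46322 CPM in β-cells against at most 5840 in the other fraction, where 6 alpha-cell markers summed to at least 106007. Log2 changes with their standard errors (SE) come from limma-voom, with p-values adjusted by the Benjamini-Hochberg method over all 15598 tested genes and 0.05 as the threshold.

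**Figure D1:**
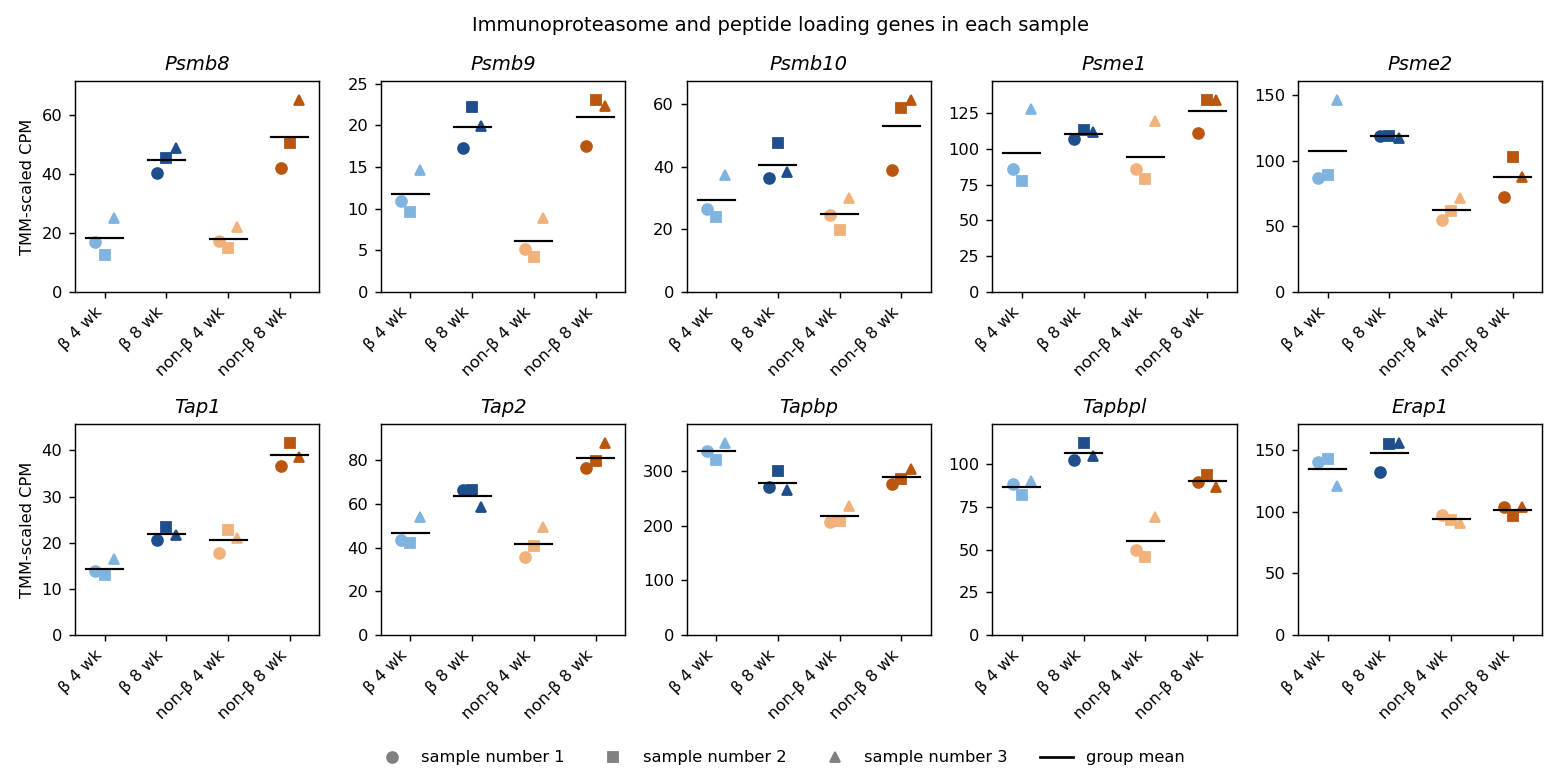
Level of each of the 10 genes, in TMM-scaled CPM on linear axes that start at 0, in the 12 samples. Symbols give the sample number, colours the group and lines the group mean (n = 3). Psmb8 shows 12.6 to 25.2 CPM in the 4-week β samples and 40.3 to 49.0 in the 8-week ones, and number 3 is the highest 4-week sample in most panels.

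The first comparison asked how these genes differed in β-cells between 4 and 8 weeks. Psmb8, Psmb9, Tap1 and Tap2, the 4 genes of the MHC cluster, rose, and none of the 10 fell (limma-voom). Among all tested genes, 8.59% rose and 9.35% fell (17.9% in all). With edgeR's quasi-likelihood test 3 of the 10 rose and none fell, and with DESeq2 4 rose and Tapbp fell. The shares of all genes are from limma-voom, and those under edgeR's test and DESeq2 are not given here. At an unadjusted p under 0.05 (limma-voom) Tapbp was the only 1 of the 10 that was lower at 8 weeks. The median log2 change was 0.38 over the 10 genes and 0.02 over all tested genes.

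Psmb8 encodes the inducible subunit with chymotrypsin-like activity. Its level in β-cells was 16.9, 12.6 and 25.2 CPM in the 3 samples at 4 weeks and 40.3, 45.5 and 49.0 at 8 weeks. Every 8-week sample was above every 4-week sample, and number 3 was the highest at both ages. The log2 change was 1.37 (SE 0.23), or 2.58-fold, with an adjusted p of 0.00145 (limma-voom), and it was the largest of the 10 genes in these cells.

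Psmb9 encodes the inducible subunit that takes the place of the caspase-like one. It had 10.9, 9.63 and 14.7 CPM in β-cells at 4 weeks and 17.3, 22.2 and 19.9 at 8 weeks. The ages did not overlap, and number 3 was the highest at 4 weeks. The log2 change was 0.78 (SE 0.21, adjusted p = 0.0217, limma-voom).

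Psmb10 encodes the third inducible subunit, which replaces the trypsin-like one. It had 26.6, 23.8 and 37.4 CPM at 4 weeks and 36.3, 47.5 and 38.3 at 8 weeks in β-cells, so the ages overlapped through number 3 at 4 weeks. The log2 change of 0.50 (SE 0.22) did not pass the test (adjusted p = 0.133, limma-voom).

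Tap1 and Tap2 encode the partner chains of the transporter. Tap1 had 13.8, 13.0 and 16.5 CPM in β-cells at 4 weeks and 20.7, 23.3 and 21.7 at 8 weeks. Tap2 had 43.5, 41.9 and 54.1 CPM at 4 weeks and 66.1, 66.4 and 58.3 at 8 weeks. Neither gene overlapped between ages. Tap1 rose by 0.62 on the log2 scale (SE 0.14, adjusted p = 0.00982, limma-voom). Tap2 rose by 0.46 (SE 0.14, adjusted p = 0.0330, limma-voom).

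The other 5 genes did not pass the test in β-cells. Tapbp, which encodes tapasin, the editor that bridges class I to the transporter, had 336, 321 and 350.5 CPM at 4 weeks and 272, 301 and 264 at 8 weeks. All its 8-week samples were below its 4-week samples, and the log2 change was -0.27 (SE 0.09, 95% confidence interval -0.47 to -0.07, adjusted p = 0.0646, limma-voom). Tapbpl, the gene of a tapasin-related editor, had 88.4, 81.9 and 90.2 CPM at 4 weeks and 102, 112 and 105 at 8 weeks. Its ages did not overlap either, with a log2 change of 0.29 (SE 0.13, adjusted p = 0.131, limma-voom). In all, 5 of the 10 genes had every 8-week sample above every 4-week sample (20.7% of all tested genes did) and 1 had every 8-week sample below (19.6%, and 40.3% for either direction).

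The PA28 genes and Erap1 overlapped between ages in β-cells. Psme1 had 86.3, 77.9 and 128 CPM at 4 weeks against 107, 114 and 112 at 8 weeks. Psme2 had 87.1, 89.3 and 146 CPM at 4 weeks against 119, 119 and 118 at 8 weeks. For both, number 3 at 4 weeks was above all other β samples. Erap1 had 140, 143 and 121 CPM at 4 weeks against 132, 155 and 155 at 8 weeks, and here number 3 was the lowest. The log2 changes were 0.22, 0.19 and 0.13, with 95% confidence intervals of -0.17 to 0.62, -0.21 to 0.58 and -0.09 to 0.35.

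How many of the 10 genes rose in β-cells depended on single samples. Without both 4-week samples numbered 3, 8 of the 10 rose (all but Tapbp and Erap1), and Tapbp fell, with a log2 change of -0.24 (adjusted p = 0.0379, limma-voom). In that fit 3504 of all genes changed, against 2799 with all samples. Since most of the 10 were highest in number 3 at 4 weeks, larger rises were built into this fit and add no support. Psme1 and Psme2 then rose by 0.44 and 0.43 (adjusted p = 0.00631 and 0.0162, limma-voom). Without 4-week β sample 3 alone, Psmb10 and Psme2 joined the 4 (adjusted p = 0.0495 and 0.0483). Without 4-week β sample 2, in contrast, Psmb8 alone passed the test. Without 4-week β sample 1, or 8-week β sample 2 or 3, Psmb8 and Tap1 passed, and without 8-week β sample 1 Tap2 was lost (adjusted p = 0.113). Psmb8 kept its call in all 6 fits that left out 1 β sample, with log2 changes from 1.09 to 1.64.

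The β fraction itself differed between ages. The summed level of 6 alpha-cell markers was 5625 to 9406 CPM at 4 weeks and 1518 to 2572 at 8 weeks, and all 6 fell. The summed level of 8 acinar markers was 96.2 to 197 and 437 to 925 CPM, respectively, and 5 of 8 rose. The β-cell markers summed to 46322 to 81304 CPM at 4 weeks and 106957 to 112521 at 8 weeks, and 5 of 8 rose. Mesenchymal markers summed to 4.36 to 15.7 CPM at 4 weeks and 26.6 to 54.7 at 8 weeks, without overlap, and 1 of 9 rose. Their part in the differences above was not tested. Of 21 leukocyte markers only Cd68 and Cd79a passed the filter, and Cd68 made up most of the sum, which was 52.5 to 53.7 CPM at 4 weeks and 71.0 to 78.1 at 8 weeks. Ptprc, the gene of CD45, was at 0 in all 3 β samples at 8 weeks, as were Cd4 and Nkg7. In such bulk samples, more cells of a type and more RNA per cell cannot be told apart.

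In non-β-cells, 7 of the 10 genes rose between 4 and 8 weeks and none fell, where 11.6% of all tested genes rose and 4.8% fell (16.4% in all). The counts of the 10 were the same with edgeR's test and with DESeq2, for which shares of all genes are not given here. At an unadjusted p under 0.05 (limma-voom) none of the 10 was lower at 8 weeks. The genes that rose were all 3 inducible subunits, both transporter genes and both editors. The median log2 change was 0.83 over the 10 genes, against 0.01 over all tested genes. In 8 of the 10, every 8-week sample was above every 4-week sample (19% of all tested genes, and 32.8% for either direction).

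Psmb9 had the largest change of the 10. Its non-β samples had 5.20, 4.21 and 8.82 CPM at 4 weeks and 17.5, 23.0 and 22.3 at 8 weeks, without overlap. This was a log2 change of 1.84 (SE 0.26), or 3.57-fold, with an adjusted p of 2.95e-04 (limma-voom). Psmb8 had 17.3, 14.8 and 22.1 CPM at 4 weeks and 42.2, 50.7 and 65.2 at 8 weeks. It rose by 1.54 on the log2 scale (SE 0.23, adjusted p = 4.53e-04, limma-voom), again without overlap. Psmb10, which did not pass in β-cells, had 24.6, 19.7 and 29.97 CPM at 4 weeks and 38.9, 58.8 and 61.2 at 8 weeks in non-β-cells. Its log2 change was 1.07 (SE 0.22, adjusted p = 0.00441, limma-voom).

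Both transporter genes rose. Tap1 had 17.7, 22.7 and 21.1 CPM at 4 weeks and 36.6, 41.5 and 38.7 at 8 weeks. Tap2 had 35.5, 40.7 and 49.2 CPM at 4 weeks and 76.2, 79.4 and 87.5 at 8 weeks. Every 8-week sample was above every 4-week sample for both genes. The log2 changes were 0.93 for Tap1 (SE 0.13, adjusted p = 2.45e-04) and 0.97 for Tap2 (SE 0.14, adjusted p = 2.88e-04, limma-voom).

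Among the editors, Tapbp had 208, 208 and 236 CPM at 4 weeks and 277, 286 and 303 at 8 weeks in non-β-cells. Its log2 change was 0.41 (SE 0.09, adjusted p = 0.00805, limma-voom), but the call was lost without 4-week non-β sample 1 or 2 (adjusted p = 0.0658 and 0.0568). Tapbpl had 49.7, 45.9 and 69.0 CPM at 4 weeks and 89.7, 93.4 and 86.5 at 8 weeks. It rose by 0.74 (SE 0.13, adjusted p = 0.00171, limma-voom), and number 3 was the highest of its 4-week samples.

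Psme1, Psme2 and Erap1 did not pass in non-β-cells. Psme1 had 85.8, 79.2 and 119 CPM at 4 weeks and 111, 134 and 134 at 8 weeks, so the ages overlapped through number 3. Psme2 had 54.7, 61.7 and 71.7 CPM at 4 weeks and 72.5, 103 and 88.1 at 8 weeks, which did not overlap. The log2 changes were 0.43 and 0.48 (adjusted p = 0.136 and 0.117, limma-voom). Without both 4-week samples numbered 3 they were 0.61 and 0.58, and both passed (adjusted p = 7.00e-04 and 0.00478), which brought the count to 9 of 10. In that fit 3437 of all genes changed, against 2561 with all samples. Erap1 had 97.4, 93.2 and 90.5 CPM at 4 weeks and 104, 96.8 and 104 at 8 weeks. Its log2 change of 0.12 had a 95% confidence interval of -0.10 to 0.34.

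The make-up of the non-β fraction differed strongly between ages. All 10 endothelial markers rose, from a sum of 54.8 to 99.2 CPM at 4 weeks to a sum of 417 to 1118 at 8 weeks. All 9 mesenchymal markers rose as well, from 107 to 308 CPM to 697 to 1086. None of these markers was at 0 in all 3 samples of a group, and their sums in β-cells stayed at or below 18.3 and 54.7 CPM. Acinar markers summed to 34.3 to 90.8 CPM and 204 to 759 CPM, respectively, and 3 of 8 rose. Duct markers summed to 302 to 388 CPM at 4 weeks and 461 to 528 at 8 weeks, and 4 of 6 rose. β-cell markers summed to 2877 to 4006 and 4926 to 5840 CPM, without overlap, and 2 of 8 rose while 1 fell. Leukocyte markers summed to 8.86 to 13.8 CPM at 4 weeks and 16.2 to 21.6 at 8 weeks in non-β-cells, with Cd3g, Cd79b, Adgre1 and Nkg7 at 0 in every 8-week sample. The part of these cells in the rise of the 10 genes was not tested.

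**Figure D2:**
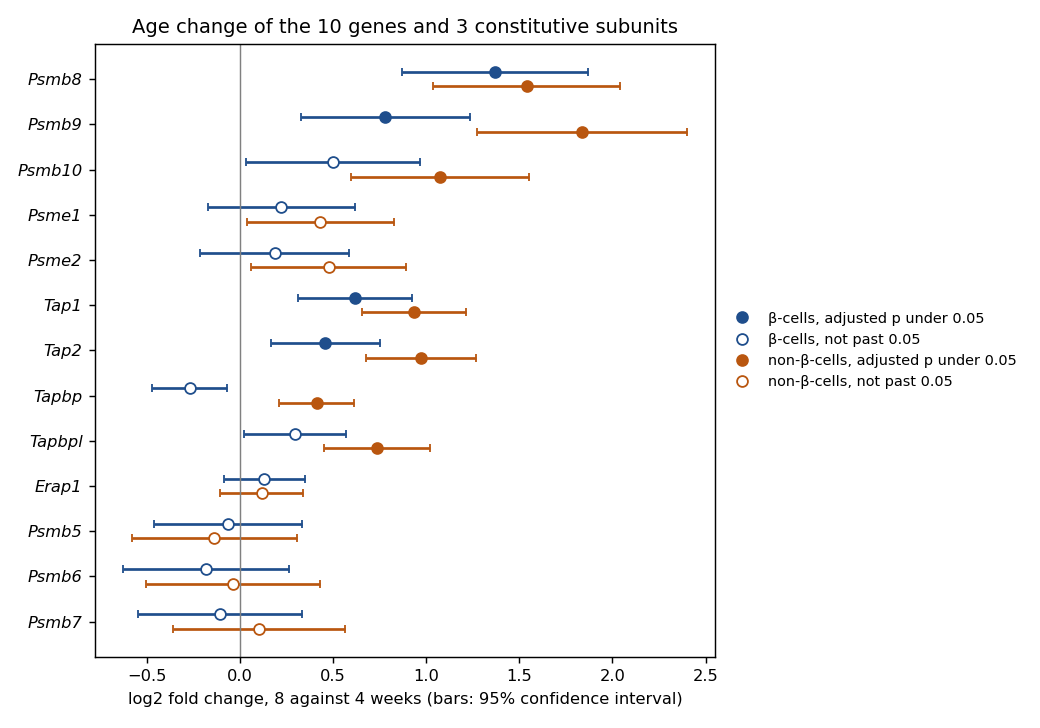
Log2 fold change between 8 and 4 weeks with its 95% confidence interval (limma-voom) for the 10 genes and the 3 constitutive catalytic subunits, in β-cells and non-β-cells. Filled points passed an adjusted p of 0.05. The 4 filled β points run from 0.46 (Tap2) to 1.37 (Psmb8), and the intervals of Psmb5, Psmb6 and Psmb7 span 0 in both fractions.

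The difference between the fractions in their age change was tested with an interaction term, with negative values where β-cells rose less or fell more. Of the 10 genes only Tapbp passed (also with edgeR's test and DESeq2, 1 gene each), with a negative difference. Among all tested genes 3.33% had a negative and 1.8% a positive one (5.13% in all). The difference for Tapbp was -0.68 (SE 0.13, adjusted p = 0.00968, limma-voom), from changes of -0.27 (β) and 0.41 (non-β). Tapbp was 0.63 higher in β-cells at 4 weeks on the log2 scale, and its difference at 8 weeks was -0.05. Its exons overlap 149 bases of Zbtb22 on the same strand and 904 bases of the antisense gene Gm19412, so its counts are uncertain to that extent.

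Other differences did not pass. They were -1.06 for Psmb9 (adjusted p = 0.0961), -0.57 for Psmb10 (adjusted p = 0.347), -0.51 for Tap2 (adjusted p = 0.163) and -0.44 for Tapbpl (adjusted p = 0.208, all limma-voom). The median was -0.38 over the 10 genes and 0.00 over all tested genes. Without both 4-week samples numbered 3, Psmb9, Tap2 and Tapbpl also passed (adjusted p = 0.0361, 0.0424 and 0.00891), as 1468 of all genes did, against 800 with all samples. Without non-β 4-week sample 3 alone, Psmb9 and Tapbpl joined Tapbp (adjusted p = 0.0337 and 0.0207). With the sample number as a block, Psmb9, Psmb10 and Tap2 passed beside Tapbp (adjusted p = 0.00927, 0.0340 and 0.0339), among 1879 genes. The interval for Psmb8 was wide (-0.88 to 0.53), and that for Erap1 was -0.30 to 0.32.

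Whether the rise was particular to the inducible subunits was asked within each library, where the library scaling cancels. The share of the inducible subunit was taken as its counts per length of annotated exons over the sum for the pair. Psmb8 made up 8.73%, 5.55% and 7.25% of the Psmb8 and Psmb5 pair in β-cells at 4 weeks, and 16.0%, 16.3% and 18.3% at 8 weeks. In non-β-cells its share was 11.2%, 10.4% and 13.2% at 4 weeks and 29.5%, 26.4% and 31.9% at 8 weeks. The ages did not overlap in either fraction. At each age the β samples were all below the non-β samples.

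Psmb9 was set against Psmb6 in the same way. It made up 5.71%, 5.24% and 4.73% of the Psmb9 and Psmb6 pair in β-cells at 4 weeks and 9.01%, 10.5% and 9.35% at 8 weeks. In non-β-cells it was 3.94%, 3.53% and 4.83% at 4 weeks and 14.1%, 13.7% and 12.7% at 8 weeks. The fractions overlapped at 4 weeks and were apart at 8 weeks, when all non-β samples were higher.

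Psmb10 was set against Psmb7. It was 38.4%, 37.8% and 35.1% of the Psmb10 and Psmb7 pair in β-cells at 4 weeks and 45.2%, 50.9% and 45.4% at 8 weeks. In non-β-cells it was 44.2%, 42.3% and 42.5% at 4 weeks and 57.9%, 61.5% and 60.2% at 8 weeks. Again no 8-week sample overlapped a 4-week sample of the same fraction. Shares depend on the annotated exon lengths, whereas fold changes of the ratio do not. In counts, without lengths, Psmb10 was the lower of its pair in every sample, with ratios of 0.685 to 0.796 in non-β samples at 8 weeks, and the ratio of Psmb8 to Psmb5 (mean 1.56) was the larger there. Whether the changes in ratio differ between the fractions was not tested.

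The ratio of inducible to constitutive counts rose 2.67-fold for Psmb8 to Psmb5, 1.93-fold for Psmb9 to Psmb6 and 1.51-fold for Psmb10 to Psmb7 in β-cells. In non-β-cells the corresponding rises were 3.15-fold, 3.67-fold and 1.97-fold. Over both fractions, with ages permuted within each fraction, each of the 3 ratios differed between ages (exact permutation test, 2-sided, p = 0.005, which is the smallest that 400 arrangements can give, adjusted p = 0.005 over the 3 pairs). Within 1 fraction alone, 3 samples against 3 cannot give an exact p below 0.1. The test over both fractions took β and non-β samples as independent. If equal numbers share a preparation, which the labels do not state, the limit of 0.1 holds for that test too. Without both 4-week samples numbered 3 the mean log2 changes were 1.60, 1.44 and 0.75, against 1.54, 1.41 and 0.79 with them.

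**Figure D3:**
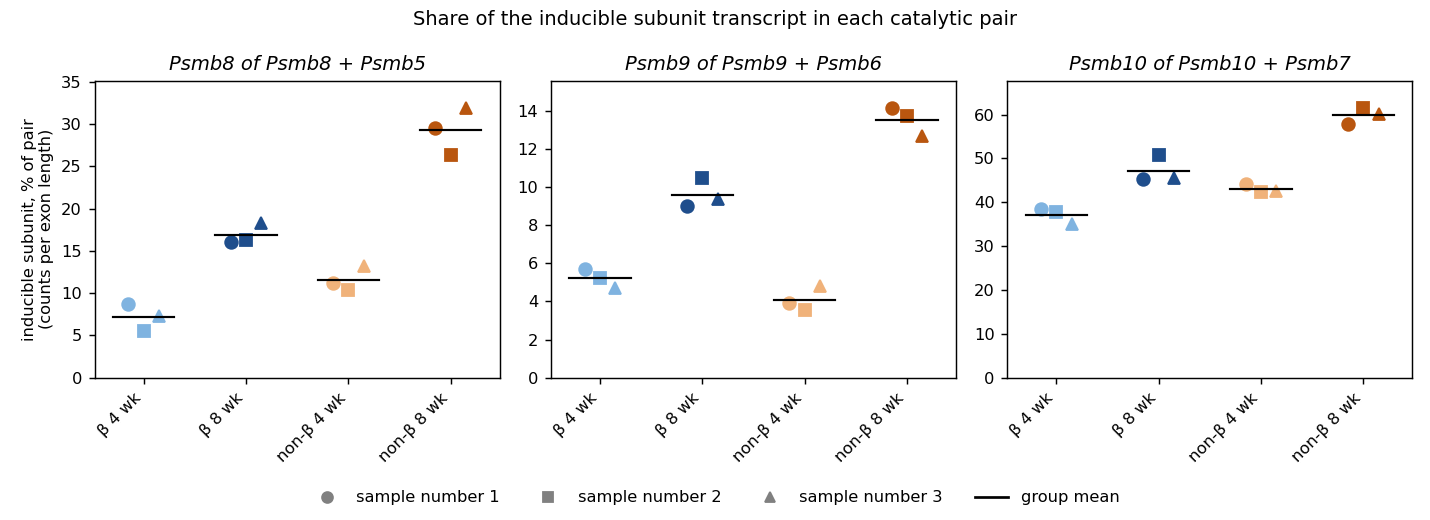
Share of the inducible subunit in each catalytic pair, in percent of the pair's counts per exon length, for the 12 samples on linear axes that start at 0. Symbols give the sample number and lines the group mean (n = 3). In each panel and fraction the 8-week samples lie above the 4-week samples, and Psmb8 reaches 26.4% to 31.9% in non-β-cells at 8 weeks.

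The constitutive subunits themselves did not pass the test in either fraction. Psmb5 had 47.1, 57.2 and 85.6 CPM in β-cells at 4 weeks and 56.2, 62.1 and 58.0 at 8 weeks, with a log2 change of -0.06 (95% confidence interval -0.46 to 0.33). In non-β-cells it changed by -0.14 (-0.58 to 0.31). For Psmb6 the changes were -0.18 and -0.04, and for Psmb7 -0.10 and 0.10, all with intervals that span 0. None of the 3 had an unadjusted p under 0.05 in either fraction.

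The rest of the pathway was described from 8 further lists. None of the 11 other 20S core subunits changed in either fraction (limma-voom, and none at an unadjusted p under 0.05), with median log2 changes of -0.11 (β) and 0.06 (non-β). Among the 18 subunits of the 19S particle, which unfolds ubiquitinated proteins, Psmd8 (-0.57, adjusted p = 0.0356) and Adrm1 (-0.41, adjusted p = 0.0377, limma-voom) fell in β-cells, and none changed in the other fraction, also at an unadjusted p under 0.05. Of 5 assembly factors, Psmg2 fell in β-cells (-0.63, adjusted p = 0.0245, limma-voom). Psmd8, Adrm1 and Psmg2 were each highest in number 3 among 4-week β samples, which by itself enlarges a fall. Fits without that sample are not given for them. Pomp, the chaperone of the assembling core, did not pass (-0.07). None of the 3 other activators and inhibitors (Psme3, Psme4 and Psmf1) changed in either fraction, also at an unadjusted p under 0.05.

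In the endoplasmic reticulum, none of the 5 listed general chaperones and folding factors passed as higher at 8 weeks. Calr, Canx, Pdia3 and Uggt1 did not pass in either fraction, and Hspa5, the general chaperone BiP, fell in β-cells (-0.44, adjusted p = 0.0209, limma-voom). At an unadjusted p under 0.05, Uggt1 was higher at 8 weeks in β-cells (0.29), and in the other fraction Hspa5 was higher (0.26) and Canx lower (-0.24). Of 6 other peptidases tested, Blmh fell in β-cells (-0.61, adjusted p = 0.0105, limma-voom), and none changed in non-β-cells, also at an unadjusted p under 0.05. Hspa5 and Blmh, too, were highest in number 3 among 4-week β samples, and fits without it are not given for them.

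The genes of the class I molecule rose in both fractions. H2-K1, H2-D1 and B2m, the heavy chains and the light chain, rose by 0.55, 0.73 and 1.47 on the log2 scale in β-cells (adjusted p = 0.0152, 0.00159 and 2.48e-05, limma-voom). In non-β-cells they rose by 1.63, 1.16 and 2.07. Some H2 variants of NOD mice, such as that of H2-K1, differ from the reference transcripts, so levels of heavy chains can be uncertain.

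Of 7 regulators of class I genes, 4 rose in each fraction. In β-cells Nlrc5, the class I transactivator, rose by 1.86 on the log2 scale (adjusted p = 0.00177, limma-voom), and in the other fraction by 0.85 (adjusted p = 0.0165). Irf1, an interferon-induced activator, rose by 0.85 and 2.57. Rfxank rose in β-cells (0.52, adjusted p = 0.0481) and Rfx5 in non-β-cells (0.79, adjusted p = 0.00845), both subunits of the factor that binds class I and class II promoters.

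**Figure D4:**
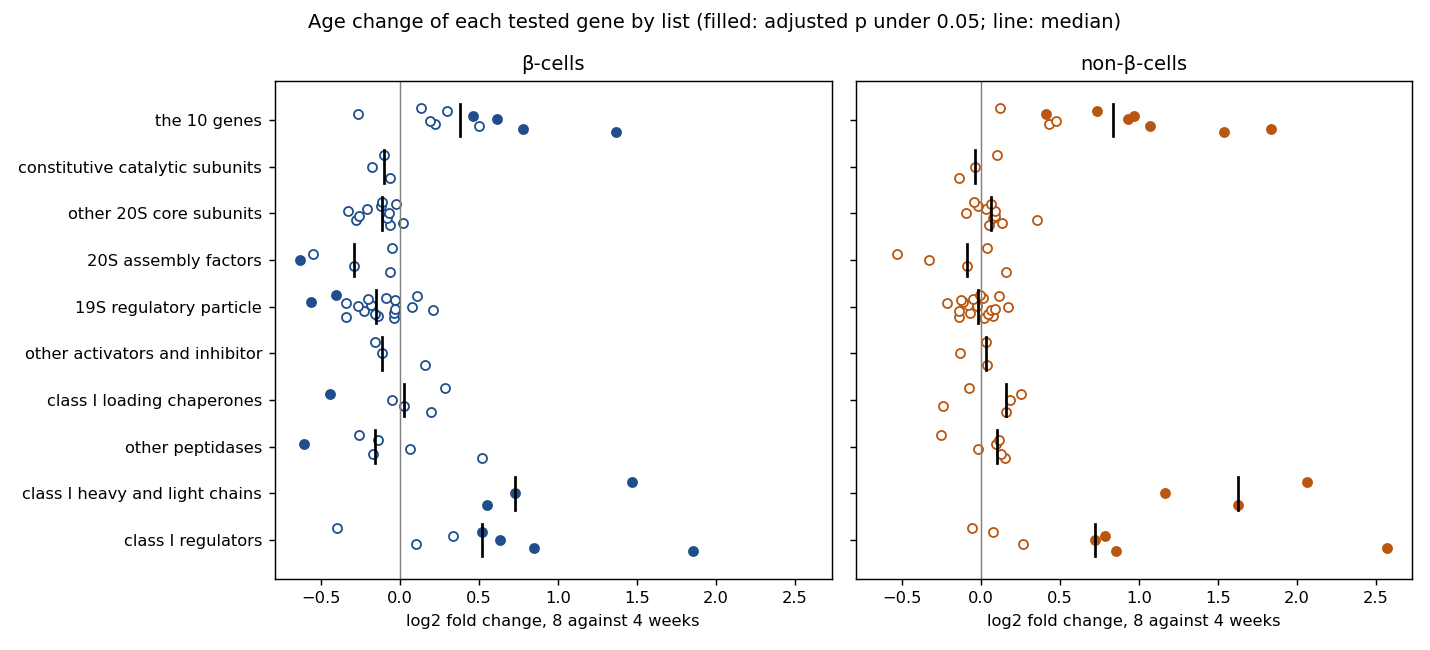
Log2 fold change between 8 and 4 weeks (limma-voom) of each tested gene, by list, in β-cells (left) and non-β-cells (right). Filled points passed an adjusted p of 0.05, and lines are list medians. Medians of the 10 genes are 0.38 and 0.83 and those of the 20S core -0.11 and 0.06.

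The second comparison set β-cells against non-β-cells at the same age. At 4 weeks 5 of the 10 genes were higher in β-cells and 1 was lower, where 24.9% of all tested genes were higher and 23.7% lower (48.5% in all). These 6 genes were also the ones without overlap between the fractions, 5 above (26.5% of all tested genes) and 1 below (26.7%, and 53.1% for either direction). Psmb9 was higher by 1.00 on the log2 scale (SE 0.27, adjusted p = 0.00871, limma-voom), at 9.63 to 14.7 CPM in β-cells against 4.21 to 8.82. Psme2 was higher by 0.75 (SE 0.19, adjusted p = 0.00567, limma-voom), at 87.1 to 146 CPM against 54.7 to 71.7. Psme2 was highest in β sample 3.

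Both editors and the trimming enzyme were also higher in β-cells at 4 weeks. Tapbp stood at 321 to 350.5 CPM against 208 to 236 (0.63, SE 0.09, adjusted p = 1.33e-04, limma-voom). Tapbpl stood at 81.9 to 90.2 CPM against 45.9 to 69.0 (0.69, SE 0.13, adjusted p = 9.10e-04). Erap1 stood at 121 to 143 CPM against 90.5 to 97.4 (0.52, SE 0.10, adjusted p = 0.00108). Its exons share 834 bases with Cast on the opposite strand.

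Tap1 was the gene that was lower in β-cells at 4 weeks, at 13.0 to 16.5 CPM against 17.7 to 22.7 (-0.50, SE 0.14, adjusted p = 0.0118, limma-voom). Without 4-week β sample 2 it did not pass (adjusted p = 0.0616). Psmb8, Psmb10, Psme1 and Tap2 overlapped between the fractions, with log2 differences of -0.03, 0.23, 0.03 and 0.16. The constitutive proteasome was higher in β-cells at this age as well: all 3 constitutive catalytic subunits, 9 of 11 other core subunits and 17 of 18 subunits of the 19S particle passed.

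At 8 weeks 1 of the 10 genes was higher in β-cells and 2 were lower, where 23.6% of all tested genes were higher and 25.6% lower (49.2% in all). Without overlap, 3 genes were above in β-cells and 2 below (32.4% of all tested genes in each direction and 64.9% in all). Erap1 remained higher, at 132 to 155 CPM against 96.8 to 104 (0.53, SE 0.10, adjusted p = 8.14e-04, limma-voom). Tap1 was lower, at 20.7 to 23.3 CPM against 36.6 to 41.5 (-0.82, SE 0.13, adjusted p = 1.44e-04). Tap2 was lower at 58.3 to 66.4 CPM against 76.2 to 87.5 (-0.35, SE 0.13, adjusted p = 0.0421), but it did not pass in any of the 6 fits that left out 1 sample (adjusted p from 0.0570 to 0.180). Psmb10 passed as lower in β-cells without 8-week non-β sample 1 (adjusted p = 0.0374), and Psme2 as higher without 8-week non-β sample 2 (adjusted p = 0.0426).

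For Psmb9 the difference of 4 weeks was not seen at 8 weeks, at -0.05 (95% confidence interval -0.47 to 0.36). Tapbp, likewise, was at -0.05 (-0.25 to 0.15), with 264 to 301 CPM in β-cells and 277 to 303 in non-β-cells. Psme2 and Tapbpl did not overlap between the fractions at 8 weeks but did not pass (0.46 and 0.25, adjusted p = 0.0578 and 0.128, limma-voom). With the sample number as a block both passed, as did Psmb10 with a lower level in β-cells, which made 3 genes higher and 3 lower, while 8945 of all genes passed against 7679 without the block. The endothelial and mesenchymal sums given above did not overlap between the fractions at either age, and their part in these differences was not tested.

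**Figure D5:**
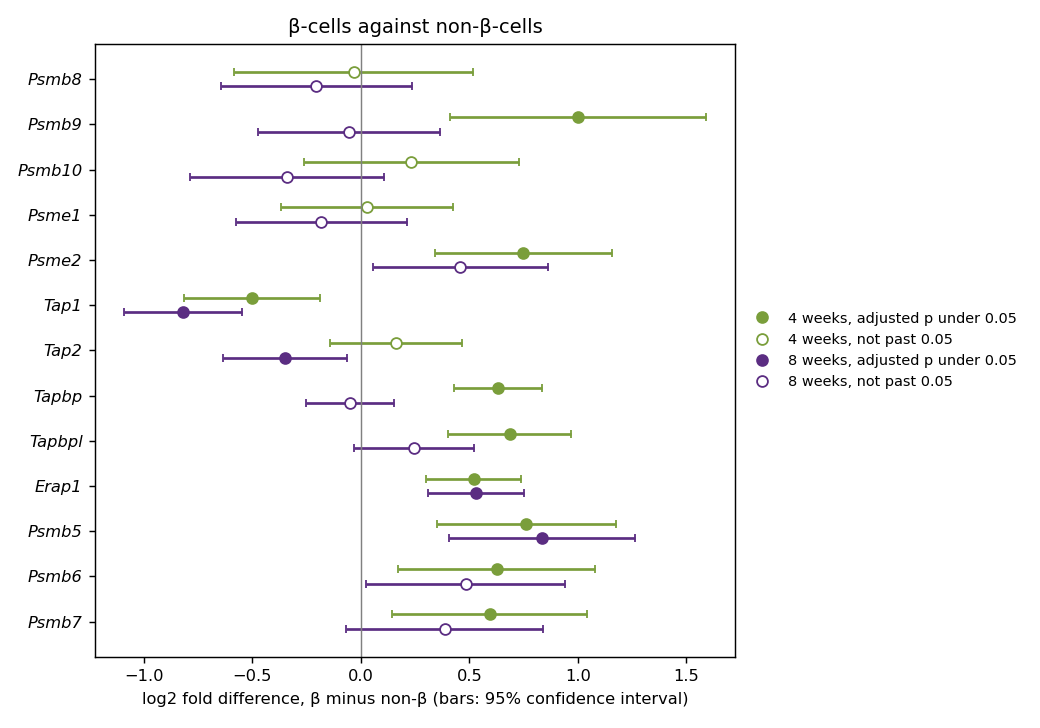
Log2 difference between β-cells and non-β-cells at 4 and 8 weeks with its 95% confidence interval (limma-voom) for the 10 genes and the 3 constitutive catalytic subunits. Positive values are higher in β-cells, and filled points passed an adjusted p of 0.05. Tapbp moves from 0.63 at 4 weeks to -0.05 at 8 weeks, while Erap1 stays at 0.52 and 0.53.

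Levels per kilobase of annotated exons give the order of the 10 genes. In β-cells at 4 weeks Tapbp was the highest at 92.6 ± 4.07 CPM per kilobase (SD, n = 3), followed by Psme2 at 61.0 ± 19.1, Psme1 at 44.1 ± 12.1 and Tapbpl at 36.9 ± 1.85. Psme2 and Psme1, and Psme1 and Tapbpl, differed by less than the sum of their SDs. Erap1 (18.5 ± 1.65), Psmb10 (17.2 ± 4.22) and Tap2 (12.3 ± 1.75) came next, and here too neighbours were within the sum of their SDs. The same held for the lowest, Psmb8 (5.40 ± 1.88), Psmb9 (3.21 ± 0.718) and Tap1 (2.63 ± 0.335). By mean level per kilobase, the 4 genes of the MHC cluster, the ones that rose, were the 4 lowest in these cells at 4 weeks. Tap2 and Psmb10 were not apart by this measure. In CPM without lengths, Psmb10 (mean 29.3) was below Tap2 (mean 46.5).

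At 8 weeks Psmb8 stood at 13.3 ± 1.29 (β) and 15.6 ± 3.44 (non-β) CPM per kilobase, above Psmb9 (5.40 ± 0.671 and 5.73 ± 0.817) and below Psmb10 (23.9 ± 3.50 and 31.1 ± 7.20). Tap1 remained the lower of the transporter genes per kilobase, at 4.00 ± 0.244 against 16.8 ± 1.22 for Tap2 in β-cells and 7.11 ± 0.451 against 21.4 ± 1.55 in non-β-cells. Tapbp stayed the highest of the 10 in every group.

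Across the 12 samples, the pairs with the highest Pearson's r joined Psmb8, Psmb10 and Tap2. Pearson's r of log2 CPM was 0.93 for Psmb8 with Tap2, 0.93 for Psmb8 with Psmb10 and 0.93 for Psmb10 with Tap2. Tap1 and Erap1 were the least alike (r = -0.46), as Tap1 was higher in non-β-cells and Erap1 in β-cells. The neighbours Psmb9 and Tap1 had an r of 0.50, lower than Psmb9 had with Tapbpl on another chromosome (0.92). Among genes outside the 10 with a mean log2 CPM of at least 3, those closest to their mean pattern were Cadm4 (r = 0.94), 2310030G06Rik, Rgs16, Kif19a and Serhl (each 0.93). Cadm4 had 10.6 to 16.3 CPM in β-cells at 4 weeks and 20.4 to 24.0 at 8 weeks, and, among non-β samples, 8.02 to 11.5 and 15.6 to 19.9. These values describe 12 samples in 4 groups that share libraries and depth, and carry no test.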

How the data were processed

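Per the study's methods, the authors cleaned reversely stranded reads in fastp, ran kallisto on the transcripts of Ensembl release 98 (build GRCm38) and used tximport to obtain gene values. The authors deposited these as estimated counts per gene, not scaled or filtered (14.0% to 19.3% of a sample's values were not whole). Tool versions, and whether counting used strand, are not given in the sources used here.

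Counts were rounded. Genes with a CPM above 1 in at least 3 of 12 samples were kept. Libraries were scaled by TMM (edgeR 4.0.16) and compared by limma-voom (R 4.3.3 with limma 3.58.1), with 1 mean per group for all 4 groups. Tests were 2-sided. Subunit ratios used a pseudocount of 0.5 counts and exact permutation. The model was tested on simulated counts. Symbols, coordinates and exon lengths are from GENCODE M21, with promoters from RefSeq. Of the listed genes, Nrdc had no match by symbol, and values of some listed genes are not reported here.

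Samples were grouped by their labels, and replicates numbered by the label's digit. The 10 genes, the lists and the tests were chosen with earlier results of these data known. The 10 genes are always named. Genes of the other lists may be named, as well as the 5 genes most like the 10, by Pearson correlation with their mean z-score over 12 samples, and genes that overlap a member. Alternatives were DESeq2 1.42.0 (either the whole test or the size factors alone), edgeR's quasi-likelihood test, total counts, removal of hormone and mitochondrial genes, other low-count filters, sample quality weights, only the groups compared, a replicate block, and leaving out samples.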

Additional observations from a re-analysis of the deposited data

Results flagged for a closer look

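The age change differed between the fractions by an interaction test (limma-voom, Benjamini-Hochberg over all tested genes) for 4 genes of the pathway lists. They were 1 of the 10 genes, 1 of 5 chaperones and folding factors, 1 of 3 class I chains and 1 of 7 regulators. The remaining pathway lists had none. Of all tested genes 5.13% passed (800 of 15598), so the 4 are given for their values and their number is no result about the pathway. Negative values mean that β-cells rose less or fell more. For Tapbp the difference was -0.68 (SE 0.13, adjusted p = 0.00968). It passed in every fit that left out 1 of the 12 samples (adjusted p from 0.00629 to 0.0481). All 3 β samples were lower and all 3 non-β samples higher at 8 weeks than at 4 weeks. For Hspa5 the difference was -0.70 (adjusted p = 0.0283), from -0.44 (β) and 0.26 (non-β, which did not pass). For H2-K1 it was -1.08 (adjusted p = 0.00608), and for Irf1 -1.73 (adjusted p = 2.99e-05), and both rose in each fraction. Of the cell type markers, 4 passed as well: Nkx6-1 (1.21) and Pdx1 (0.82) of β-cells with a positive difference, and Gcg of alpha cells (-1.97) and Krt19 of ducts (-3.92) with a negative one. Groups of 3 were not tested for single outlying samples.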

How the results depend on the processing

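Each comparison was recomputed under the alternatives. The 3 subunit ratios passed under all of theirs, with ranges without 1 sample of 1.44 to 1.62 (Psmb8 to Psmb5), 1.36 to 1.48 (Psmb9 to Psmb6) and 0.74 to 0.82 (Psmb10 to Psmb7) on the log2 scale. No alternative for the ratios kept β and non-β samples of equal number together, so a shared preparation was not allowed for. Where a count moved by over 1.5 times or a direction turned, the cause was not tested. In β-cells, sample quality weights gave 8 rises, 1 fall and 5382 of all genes (4, 0 and 2799 in the main analysis). Omission of both 4-week samples numbered 3 gave 8 rises and 1 fall, and DESeq2's test and total counts gave 1 fall each. Omission of 1 β sample gave 1 to 6 rises and 1695 to 2491 of all genes. At 4 weeks it gave 0 to 1 lower genes.

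At 8 weeks 1 gene was higher and 2 were lower in β-cells. Total counts gave 2 higher, only the groups compared 3, quality weights 3 higher and 4 lower among 9507 of all genes (7679 in the main analysis), and edgeR's test and no filter 1 lower each, while omission of 1 sample gave 1 to 2 higher and 1 to 2 lower. For the interaction, 1 gene of the 10 and 800 of all genes passed. Quality weights gave 4 and 2384, omission of the samples numbered 3 gave 4 and 1468, DESeq2's test gave 1562 of all genes, and omission of 1 sample gave 1 to 3 and 455 to 979.

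Signs turned only for differences that did not pass in the main analysis or under any alternative. Psmb8 at 4 weeks was 0.015 with edgeR, 0.0097 with DESeq2 and 0.0062 with the block, and Psme1 -0.047 with quality weights and -0.0089 without the samples numbered 3. The Erap1 interaction was -0.0089 with DESeq2's test, -0.0094 with its size factors, -0.0029 without a filter and -0.048 without the samples numbered 3. Without 1 sample, ranges were -0.30 to 0.23 (Psmb8) and -0.18 to 0.21 (Psme1) at 4 weeks, -0.19 to 0.023 (Psmb9) and -0.11 to 0.0072 (Tapbp) at 8 weeks, and -0.44 to 0.10 (Psmb8), -0.39 to 0.0054 (Psme1) and -0.065 to 0.079 (Erap1) for the interaction.

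Whether equal numbers pair samples is not stated. Over all tested genes, deviations of samples with 1 number, taken across the fractions, correlated at 0.08, 0.13 and 0.31 at 4 weeks. Over the 10280 genes whose log2 CPM averaged 3 or more, a check added after the data had been seen, they correlated at 0.29, 0.43 and 0.67 at 4 weeks but at 0.12, 0.16 and -0.07 at 8 weeks, and in no age comparison did all 3 numbers exceed 0.1. With the replicate block, 3 genes of the 10 were higher and 3 lower in β-cells at 8 weeks, among 8945 of all genes (7679 without it), and for the interaction 4 passed among 1879 genes. The block changed no call among the 10 genes in the age changes or at 4 weeks.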
